A study of Rattus norvegicus with 19 samples.

Results

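The plasma tRNA reads described here were those assigned to 11 isotypes: alanine (Ala), asparagine (Asn), cysteine (Cys), glutamine (Gln), isoleucine (Ile), methionine (Met), phenylalanine (Phe), proline (Pro), threonine (Thr), tryptophan (Trp) and tyrosine (Tyr). They were chosen by the amino acid in the name of each feature in the tRNA table, where a feature is 1 annotated tRNA gene copy such as Chr3.trna1329-AlaCGC. The rule took 172 of the 386 features in the table, and their UMI counts (counts of unique molecular identifiers, which tag single cDNA molecules before amplification) were read by feature and as sums by anticodon. The other 214 features carry other isotypes, or none in the name. Of the 172 features, 34 were Ala, 30 Pro, 22 Cys, 14 Ile, 13 Gln, 12 Asn, 12 Met, 12 Thr, 8 Phe, 8 Tyr and 7 Trp, and they fell into 21 anticodons.

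A tRNA is the adapter of translation: it is charged with its amino acid by a matching synthetase and pairs through its anticodon with a codon of the mRNA. Isotypes with several codons use several anticodons, and most anticodons are encoded by many near-identical gene copies across the genome. Met tRNAs with the anticodon CAT comprise the initiator, which starts every protein, and the elongator, which adds Met within the chain. Blood plasma holds tRNAs mainly as fragments cut by ribonucleases, carried in vesicles, lipoproteins or ribonucleoprotein complexes, and fragments of the Gly and Glu tRNAs are the ones usually described as abundant there.

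The samples were tail-vein plasma from adult Sprague-Dawley rats, 1 small RNA library per rat, drawn into EDTA under isoflurane on day 2 after surgery or injury. Naïve rats (n = 4) had a short isoflurane exposure and no surgery, sham-operated controls (n = 5) had anesthesia and a craniectomy without impact, and rats with mild or severe traumatic brain injury (mTBI and sTBI, n = 5 each) received a lateral fluid-percussion impact through the craniectomy. The operated rats also received buprenorphine and saline afterwards. Naïve rats therefore differed from the other 3 groups in surgery and its care. Only the contrasts with sham-operated controls and between the injuries hold the operation alike. Injured rats alone were given further saline on the day after injury, and sTBI rats alone had softened food for 2 days. Injury or its severity cannot be told apart from this care in those contrasts. The study compared the 4 groups to find plasma small RNAs that mark injury, and the tRNA counts came from the same libraries as its miRNAs. Because plasma is a mixture, fewer contributing cells and less RNA released per cell cannot be told apart.

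Depth differed between libraries. The tRNA table held 1386885 to 6252441 UMIs per library, of which the 11 isotypes supplied 3966 (naïve 4) to 10800 (mTBI 2). Levels are given below as TMM-scaled CPM, that is, UMIs per 1000000 tRNA UMIs after division by the library's TMM factor (trimmed mean of M values, a composition correction computed within the tRNA table). Those factors spanned 0.5075 to 2.404, so the scaling itself moved levels. Every naïve factor (0.5075 to 0.9653) lay below every sTBI factor (0.9972 to 1.449), so the contrast of these groups depends on this correction. Counts are not divided by length, because the tables hold no lengths, and they do not tell whole tRNAs from fragments. In 7 libraries no feature of the 11 isotypes had a count from 1 to 9, whereas the other 12 libraries had 8 to 23 such features each. The listed miRNA markers of erythrocytes, leukocytes, liver, platelets, striated muscle and neurons were above 0 in all 19 libraries (5 of 5, 4 of 4, 3 of 3, 1 of 1, 2 of 2 and 4 of 4 markers). The platelet list held rno-miR-126a-3p alone, so it says little about platelets. In 4 libraries (naïve 1, naïve 3, mTBI 2 and mTBI 5) the ratio of miRNA UMIs to UMIs of the spike-in, a set of added synthetic RNAs, stood apart from the rest, and values without them are given for the sums and copies that stood apart there.

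The 11 isotypes were a small remainder of plasma tRNA. They held 0.195% of tRNA UMIs on average over the 19 libraries (range 0.0925% to 0.534%), while Gly alone held 74.3% and Glu 21.8%. By group the share was 0.137% ± 0.0523 (SD, n = 4) in naïve rats, 0.169% ± 0.0362 (n = 5) in sham-operated controls, 0.268% ± 0.153 (n = 5) in mTBI and 0.192% ± 0.0472 (n = 5) in sTBI. The groups overlapped, and the highest value, in mTBI 1, set the larger spread of the mTBI group. Set against miRNA instead of other tRNA, the same UMIs were 1.69 ± 0.359, 1.77 ± 0.0795, 1.59 ± 0.581 and 1.69 ± 0.230 per 1000 miRNA UMIs in the same order of groups, and the order of the group means was then different.

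Among the 11 isotypes Ala and Met were the most abundant, with mean shares of 0.0422% and 0.0379% of tRNA UMIs. Pro followed with 0.0270%, then Asn (0.0181%), Ile (0.0176%), Gln (0.0125%), Phe (0.0113%), Thr (0.0103%), Tyr (0.00810%), Cys (0.00740%) and Trp (0.00231%). Neighbours in this order had overlapping ranges. The number of gene copies did not set the order: Met had 111 UMIs per feature and library and Ala 38.9, while Cys, with 22 features, had 9.79 and Trp 9.65. Of the UMIs of the 11 isotypes, Ala took a steady 21.7% ± 1.53 (SD, n = 19), but Met took 20.3% ± 7.81, from 9.41% in mTBI 4 to 40.0% in naïve 3.

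**Figure D1:**
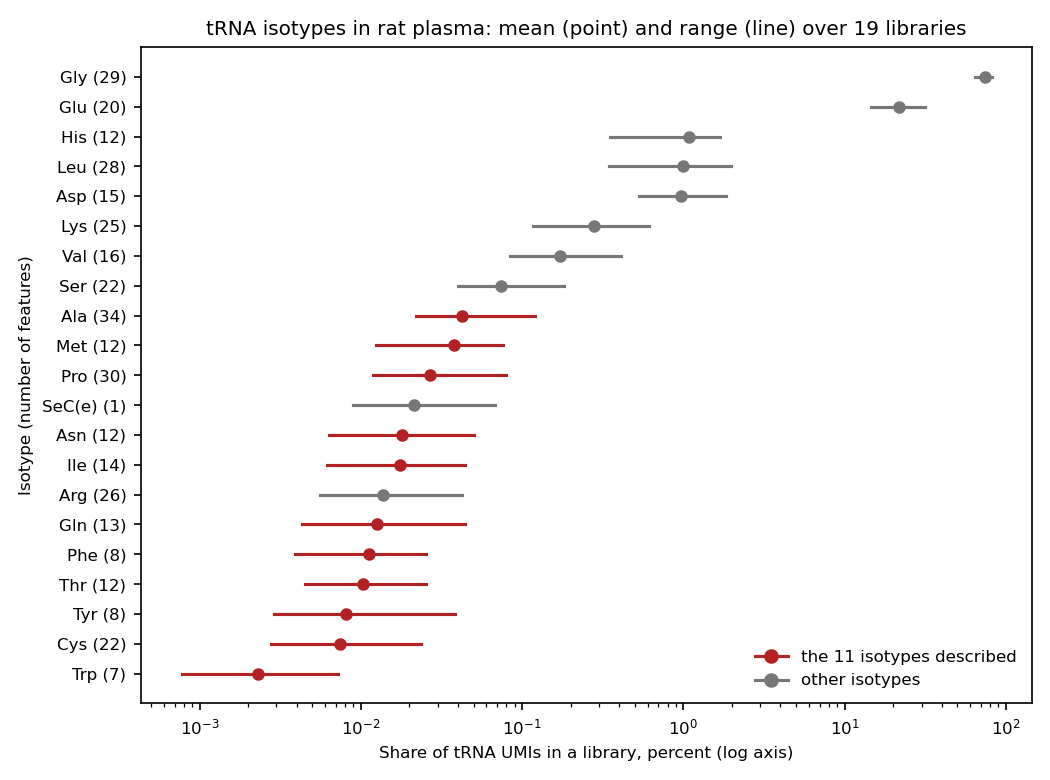
Share of tRNA UMIs held by each isotype, in percent on a log axis, with points for the mean and lines for the range over the 19 libraries; red marks the 11 isotypes. Gly and Glu stand at 74.3% and 21.8%, and the 11 isotypes lie between 0.0422% (Ala) and 0.00231% (Trp).

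Within the isotypes a few features carried most UMIs. The 10 most abundant features held 42.4% of the UMIs of the 172, and 13 features averaged over 100 UMIs per library. The median feature averaged 14.0 UMIs, against 102.1 among the other features of the table. In all 19 libraries 82 of the 172 were counted, and 17 were seen in 1 library only. By the numbers in their names, 47 features lay on chromosome 17, 28 on chromosome 10, 21 on chromosome 4 and 17 on chromosome 2. The features were named on the rat build Rnor_6.0, and near-identical copies can share or split reads, which makes the count of any single copy uncertain and the sum by anticodon less so.

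The Asn anticodon GTT rested almost on 1 copy. Chr2.trna4115-AsnGTT supplied 84.4% of AsnGTT UMIs over all libraries (62.6% to 96.4% by library). Similarly, Chr10.trna3238-ThrCGT supplied 80.9% of ThrCGT, Chr12.trna2135-AlaTGC 70.2% of AlaTGC and Chr10.trna2465-ThrAGT 68.3% of ThrAGT. Other sums were spread out. Chr17.trna3821-AlaAGC gave 21.7% of AlaAGC, which had 25 features, and Chr4.trna1068-ProAGG gave 25.9% of ProAGG, which had 21. Between these lay Chr6.trna3889-IleAAT with 53.0% of IleAAT, Chr15.trna5100-ThrTGT with 52.3% of ThrTGT, Chr7.trna8814-TrpCCA with 49.1% of TrpCCA, Chr17.trna1604-TyrGTA with 36.2% of TyrGTA, Chr10.trna10826-GlnCTG with 32.9% of GlnCTG, Chr11.trna1954-MetCAT with 32.7% of MetCAT, Chr4.trna1731-CysGCA with 32.7% of CysGCA and Chr12.trna2133-PheGAA with 32.0% of PheGAA. Each copy with the highest mean level of its isotype was counted in all 19 libraries.

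The anticodons differed in how steady they were between rats. Over the 19 libraries the coefficient of variation (SD over mean) of the scaled level was 18.6% for ThrTGT, 19.0% for ProAGG and 19.5% for AlaAGC. It reached 56.3% for MetCAT, 57.8% for PheGAA and 71.8% for AlaTGC. The median over the 18 anticodons counted in every library was 29.8%. Per miRNA UMI the same median was 26.0%, per spike-in UMI 33.5%, and per tRNA UMI with no composition correction 58.6%.

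**Figure D2:**
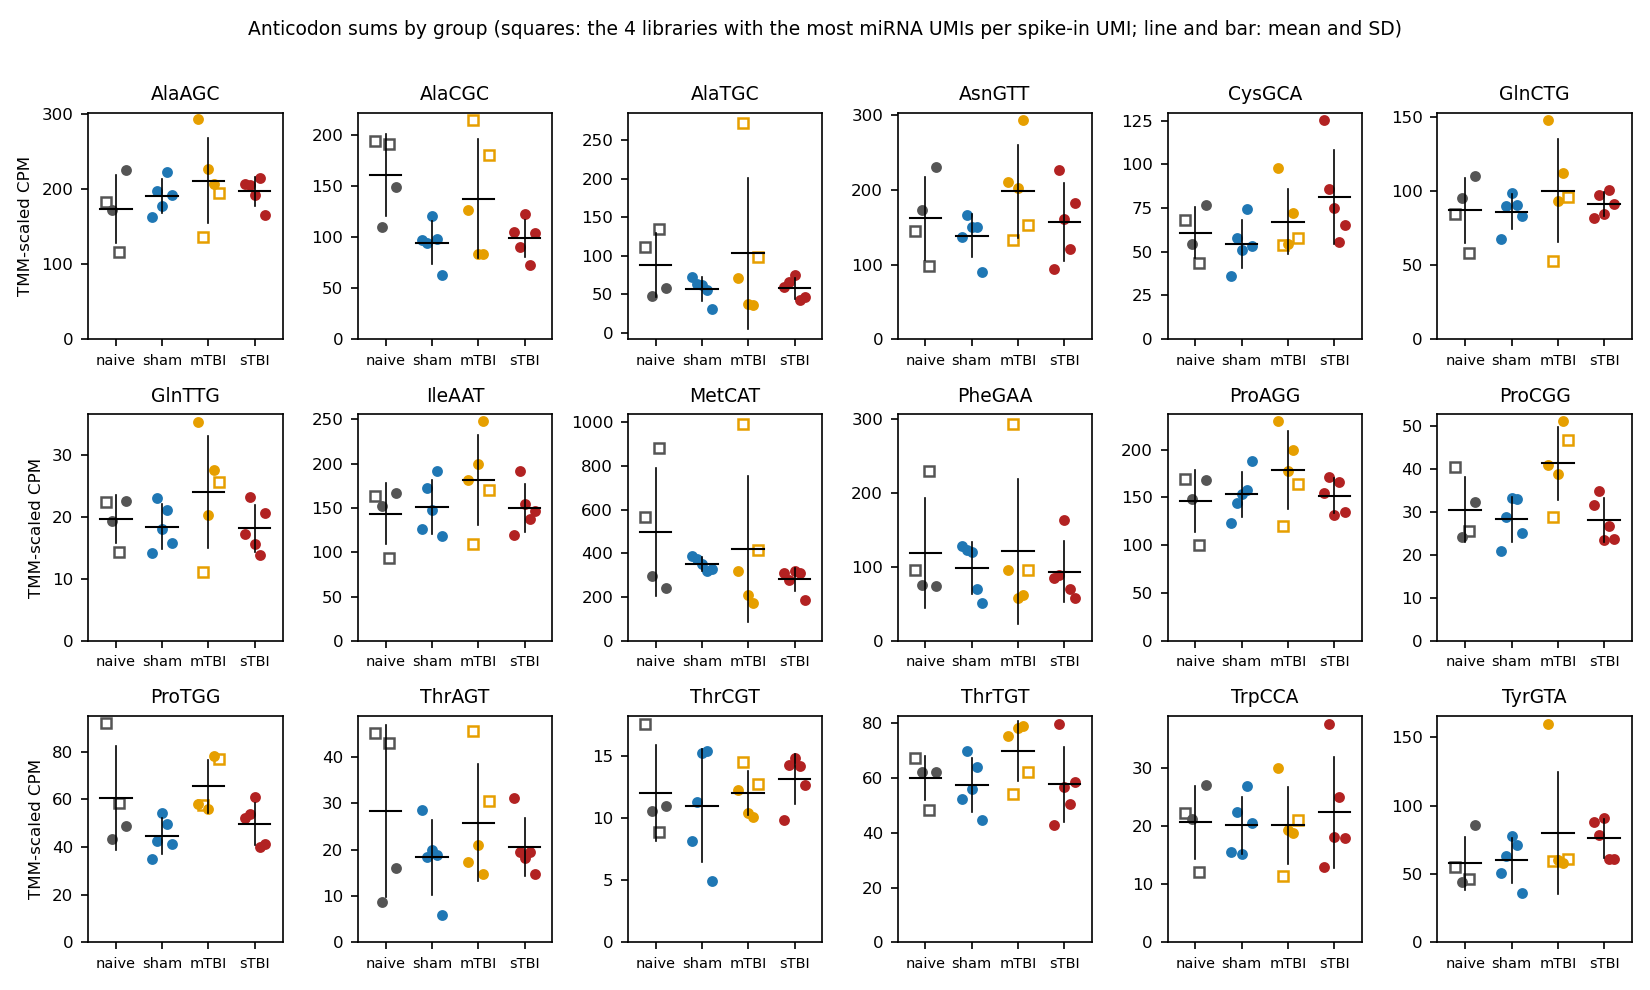
TMM-scaled CPM of the 18 anticodons counted in all libraries, 1 panel per anticodon and 1 point per library by group, with line and bar for the group mean and SD; squares are naïve 1, naïve 3, mTBI 2 and mTBI 5, whose ratio of miRNA to spike-in UMIs was highest. The squares lie above all other points for AlaCGC, AlaTGC and MetCAT. For AlaAGC, GlnCTG, IleAAT, ProAGG and TrpCCA the squares of naïve 3 and mTBI 2 lie below all points of the other libraries.

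MetCAT, the sum of the Met tRNAs, was the most abundant of the 21 anticodons and was uneven within the naïve and mTBI groups. Its UMI counts were 1995, 944, 3574 and 531 in naïve rats, 1368, 1494, 1263, 946 and 993 in sham-operated controls, 1059, 4023, 657, 375 and 1422 in mTBI, and 1009, 932, 1177, 1001 and 547 in sTBI. As scaled CPM the levels were 567.5, 295.4, 882.7 and 244.0 in naïve rats, 387.7, 375.4, 350.3, 317.8 and 327.9 in sham-operated controls, 317.6, 991.9, 208.4, 172.8 and 414.4 in mTBI, and 312.3, 278.2, 318.1, 309.7 and 188.2 in sTBI. The 2 highest libraries, naïve 3 and mTBI 2, came from different groups, and all 4 groups overlapped. The sTBI mean was 0.82 lower than the naïve mean on the log2 scale (SE 0.40, 95% interval -1.65 to 0.01, edgeR adjusted p = 0.282). That difference was -0.34 without naïve 3 and -0.14 when libraries were scaled by total tRNA UMIs. Without naïve 1, naïve 3, mTBI 2 and mTBI 5 it was 0.08 (adjusted p = 0.90), so its direction turned.

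Ala tRNAs split by anticodon. AlaAGC, the most numerous family, was even, at 174 ± 45.1 (n = 4) in naïve rats, 190.9 ± 22.5 in sham-operated controls, 211.7 ± 56.9 in mTBI and 197.4 ± 19.3 in sTBI (scaled CPM, mean ± SD, n = 5 each). AlaCGC was 194, 109.8, 191 and 149 in naïve rats, 97.5, 94.5, 121, 97.8 and 62.4 in sham-operated controls, 126, 214, 83.8, 83.9 and 181 in mTBI, and 105, 90.5, 122, 72.7 and 104 in sTBI. Of the naïve libraries 3 lay above every sham and sTBI library, but naïve 2 lay within their ranges, and mTBI spanned both. AlaTGC was 112, 47.6, 135 and 58.4 in naïve rats, 72.6, 63.8, 62.1, 55.4 and 31.4 in sham-operated controls, 71.7, 273, 36.8, 35.9 and 98.8 in mTBI, and 59.1, 65.4, 74.6, 42.4 and 46.5 in sTBI. Here mTBI 2, with 1106 UMIs, was far above the rest, and the groups overlapped. AlaGGC, a single feature, was rare, between 0 and 9.41 CPM, with 1 library at 0 UMIs.

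Pro tRNAs were read by 3 anticodons. ProTGG was 92.2, 43.5, 58.5 and 48.7 in naïve rats, 35.1, 42.5, 54.4, 49.7 and 41.3 in sham-operated controls, 58.2, 57.4, 56.1, 78.3 and 76.9 in mTBI, and 52.0, 53.7, 60.8, 40.2 and 41.3 in sTBI. Every mTBI library was above every sham library, the highest sham value (54.4) lying just under the lowest of mTBI (56.1). ProCGG was 40.4, 24.1, 25.4 and 32.2 in naïve rats, 20.97, 28.9, 33.3, 32.9 and 25.1 in sham-operated controls, 40.8, 28.8, 38.7, 51.1 and 46.6 in mTBI, and 31.6, 34.9, 23.5, 26.6 and 23.7 in sTBI. For ProCGG 4 of 5 mTBI libraries were above all sham and all sTBI libraries, and mTBI 2 was not. ProAGG, the most abundant of them, was even, with group means of 146.4 ± 32.3, 153.3 ± 23.4, 178.4 ± 41.1 and 151.7 ± 18.2.

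AsnGTT, PheGAA and TyrGTA overlapped between groups, and the last 2 had libraries far above the rest of their group. AsnGTT had group means of 162 ± 55.3 (naïve), 139 ± 29.1 (sham), 198.5 ± 62.4 (mTBI) and 157.4 ± 52.1 (sTBI) and was highest in mTBI 4, at 293.6. PheGAA ranged from 51.2 in sham 5 to 293 in mTBI 2, with naïve 3 next at 229.9 and every other library at or under 164. TyrGTA was 159 in mTBI 1, from 531 UMIs, where the other mTBI libraries had 58.1 to 61.2. Its means were 57.9 ± 19.3, 59.9 ± 16.6, 79.6 ± 44.6 and 76.0 ± 14.2.

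CysGCA was 68.0, 54.5, 43.7 and 76.7 in naïve rats, 36.0, 58.0, 50.8, 74.6 and 53.2 in sham-operated controls, 98.1, 53.7, 54.3, 72.4 and 58.0 in mTBI, and 125, 86.0, 74.9, 55.7 and 65.4 in sTBI. The sTBI group was highest by mean (81.4 ± 26.9) and overlapped all others. In its highest library, sTBI 1, 240 of the 404 CysGCA UMIs came from 11 chromosome 4 features that were counted in no other library. The remaining 164 UMIs made 50.8 CPM, within the range of the same features over all libraries (36.0 to 98.1). Of the 17 features of the 11 isotypes seen in only 1 library, 12 were seen in sTBI 1.

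The remaining sums overlapped between groups. Gln tRNAs averaged 86.9, 85.9, 100.2 and 91.0 CPM for GlnCTG and 19.7, 18.5, 24.0 and 18.2 for GlnTTG in naïve, sham, mTBI and sTBI. IleAAT averaged 143.7, 151.1, 181.6 and 149.9 in the same order, and IleTAT stayed at or under 7.46 with 6 libraries at 0 UMIs. Thr tRNAs averaged 59.9, 57.2, 69.7 and 57.6 for ThrTGT, 28.3, 18.3, 25.9 and 20.6 for ThrAGT, and 12.1, 11.0, 12.1 and 13.2 for ThrCGT. TrpCCA, the sum of the Trp tRNAs, averaged 20.7, 20.1, 20.1 and 22.3, and PheAAA, a single feature, stayed at or under 8.40 with 5 libraries at 0.

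Each pair of groups was tested with edgeR's quasi-likelihood test on the UMI counts of the whole tRNA table, with p-values adjusted by Benjamini and Hochberg over all features or sums tested and a threshold of 0.05. A filter on low counts left 332 of the 386 features, of which 134 were of the 11 isotypes, and all 21 of their anticodons among 65 sums. Comparisons with the same control group share its libraries and are not independent of each other. No feature and no anticodon sum of the 11 isotypes passed the threshold in any of the 6 comparisons or in the test of any difference among the 4 groups. In the latter test 0.301% of all features were called and 0.0% of all sums. At an unadjusted p under 0.05, it had 4 features and 1 sum (AlaCGC, adjusted p = 0.318) of the 11 isotypes, of 34 features and 6 sums in all. The 4 features were Chr3.trna1329-AlaCGC, Chr10.trna12850-ProAGG, Chr15.trna877-ProTGG and Chr13.trna3982-ProCGG. DESeq2 called 1 of their features in that test, Chr3.trna1329-AlaCGC (adjusted p = 0.0253), against 4.82% of all features, and none of their sums, against 3.08% of all sums.

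The error of the folds sets what could be seen. The median SE of the log2 fold change was 0.277 to 0.295 for anticodon sums and 0.381 to 0.42 for features, depending on the comparison. At that error the absence of a call does not show equal levels.

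**Figure D3:**
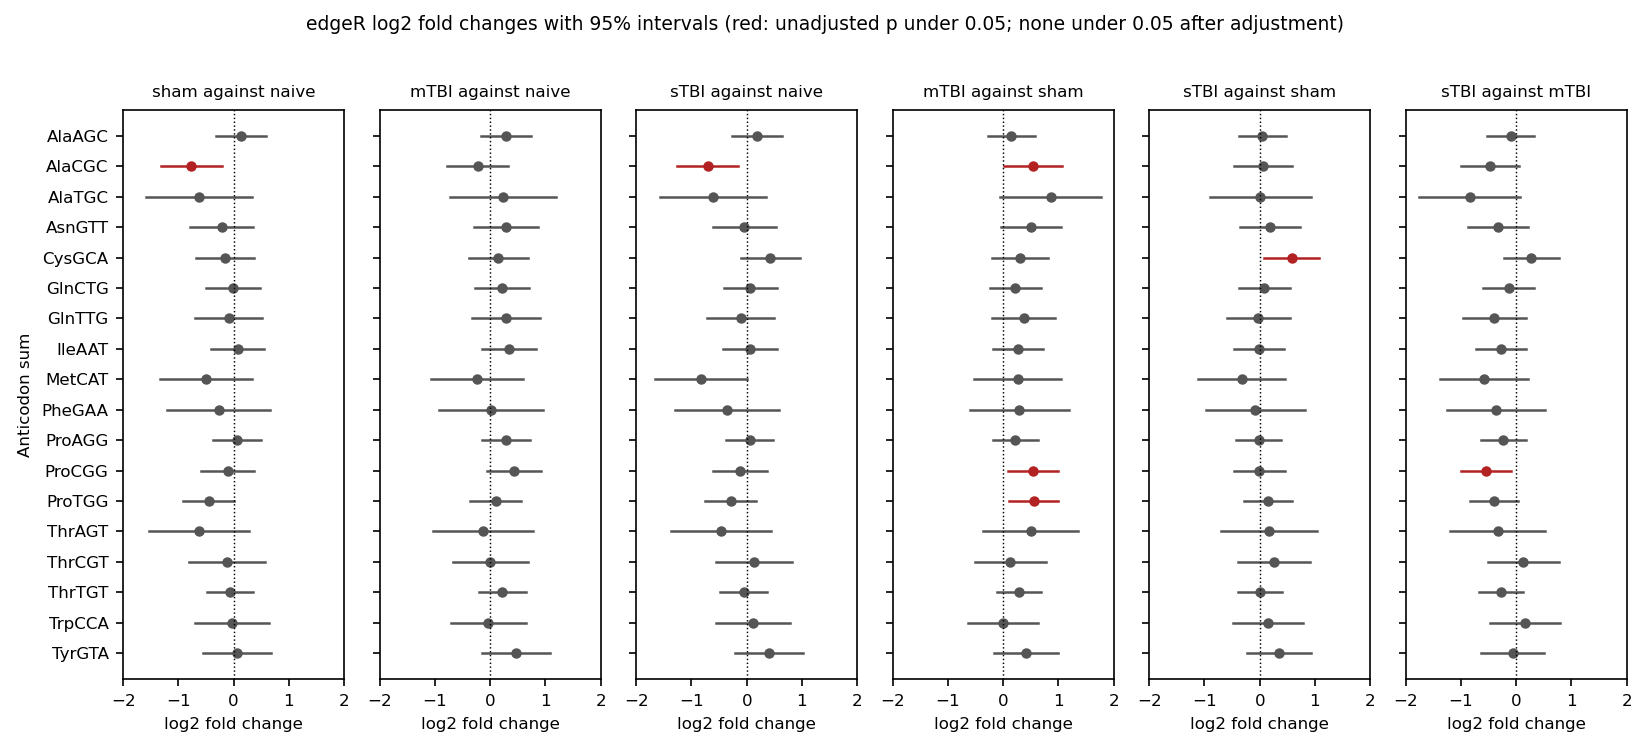
Log2 fold change of the anticodon sums in the 6 comparisons, with 95% intervals from edgeR; red marks an unadjusted p under 0.05, and none passed after adjustment. The red points are AlaCGC in 3 comparisons, ProCGG in 2, and ProTGG and CysGCA in 1 each.

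Sham-operated controls against naïve rats compared rats with craniectomy and its anesthesia, analgesia and fluid with rats that had no surgery. Of the 21 sums AlaCGC alone had an unadjusted p under 0.05, at -0.77 (log2, SE 0.27, 95% interval -1.32 to -0.21) with an edgeR adjusted p of 0.476. edgeR called 0.0% of all features and 0.0% of all sums. DESeq2 called none of the 11 isotypes, against 0.904% of all features and 0.0% of all sums. At an unadjusted p under 0.05 there were 8 of the 134 features, 5 higher and 3 lower, of 39 of all 332. The median log2 fold change was -0.05 over the 134 and -0.14 over all. Groups did not overlap for 3 features, 2.24% of the 134, against 4.82% of all features. For sums they did not overlap for none of the 21, against 1.54% of all sums.

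Those 3 features, named after their values were seen, were Chr1.trna6234-AlaAGC, Chr10.trna12846-ProTGG and Chr3.trna1329-AlaCGC. Chr1.trna6234-AlaAGC had 19, 19, 12 and 11 UMIs in naïve rats and 32, 35, 35, 31 and 20 in sham-operated controls. Chr10.trna12846-ProTGG had 47, 35, 40 and 28 UMIs in naïve rats against 19, 29, 33, 22 and 18. After scaling, the former was higher and the latter lower in every sham library than in every naïve library.

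Chr3.trna1329-AlaCGC, the most abundant Ala copy, had the lowest p of the 134 features in sham-operated controls and in sTBI against naïve rats. Its UMI counts were 451, 204, 488 and 187 in naïve rats, 154, 161, 220, 132 and 66 in sham-operated controls, 140, 549, 137, 90 and 388 in mTBI, and 122, 143, 157, 97 and 150 in sTBI. The scaled levels were 128, 63.8, 120.5 and 85.9 in naïve rats, 43.6, 40.5, 61.0, 44.3 and 21.8 in sham-operated controls, 42.0, 135, 43.5, 41.5 and 113 in mTBI, and 37.8, 42.7, 42.4, 30.0 and 51.6 in sTBI. All naïve libraries lay above all sham and all sTBI libraries, the nearest being naïve 2 and sham 3, and mTBI fell into 3 low and 2 high libraries.

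Against naïve rats Chr3.trna1329-AlaCGC was at -1.24 in sham-operated controls (log2, SE 0.35, edgeR adjusted p = 0.215) and at -1.29 in sTBI (SE 0.35, adjusted p = 0.167). DESeq2 gave adjusted p-values of 0.0588 and 0.0257 for the same contrasts, so that sTBI against naïve was past the threshold with that tool. With each library left out in turn, the sham value stayed between -1.41 and -1.05 (adjusted p 0.0944 to 0.563) and the sTBI value between -1.44 and -1.11 (0.116 to 0.341). Scaled by total tRNA UMIs, the sTBI value was -0.60 (adjusted p = 0.412).

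For mTBI against naïve rats no sum had an unadjusted p under 0.05, and 6 of the 134 features did, all higher, of 51 of all features. edgeR called 0.301% of all features, none of them of the 11 isotypes, and 0.0% of all sums. DESeq2 called none of the 11 isotypes, against 3.92% of all features and 1.54% of all sums. The median log2 fold change was 0.25 over the 134 and 0.12 over all features. Groups did not overlap for 1 feature, Chr12.trna353-AsnGTT, which is 0.746% against 1.2% of all features, and for 0.0% of all sums. It was named after its values were seen and had 4, 11, 7 and 4 UMIs in naïve rats and 17, 31, 23, 11 and 14 in mTBI, near the lowest counts the tables hold.

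This contrast depended on the scaling. With libraries scaled by total tRNA UMIs alone, 10 of the 21 sums and 7 of the 134 features were called higher in mTBI, against 29.2% of all sums and 6.63% of all features called under the same scaling. Among the 10 sums were TyrGTA (1.68 log2, edgeR adjusted p = 0.0116) and AlaAGC (1.33 log2, adjusted p = 0.043). That scaling moved the median of all features by 1.03 in the same contrast. With TMM scaling, which is relative to the bulk of tRNA features, the same fold changes were 0.46 for TyrGTA and 0.28 for AlaAGC.

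sTBI against naïve rats had 12 of the 134 features at an unadjusted p under 0.05, 7 higher and 5 lower, of 64 of all features. AlaCGC was the only such sum of the 21, at -0.70 (log2, SE 0.27, 95% interval -1.26 to -0.15, edgeR adjusted p = 0.206), and at 0.01 under scaling by total tRNA UMIs. edgeR called 0.0% of all features and 0.0% of all sums. Of the 11 isotypes DESeq2 called Chr3.trna1329-AlaCGC alone, 0.746% of the 134 features against 5.42% of all, and no sum, with 0.0% of all sums. The median log2 fold change was 0.06 over the 134 and -0.09 over all.

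Groups did not overlap for 6 features in sTBI against naïve rats, 4.48% of the 134 against 6.02% of all, and for none of the 21 sums against 6.15% of all sums. Besides Chr3.trna1329-AlaCGC, which was lower, these were Chr1.trna6234-AlaAGC, Chr3.trna7396-AlaAGC, Chr17.trna3868-AlaAGC, Chr15.trna876-TyrGTA and Chr2.trna2629-ProTGG, all higher in sTBI. Chr15.trna876-TyrGTA had 30, 30, 29 and 19 UMIs in naïve rats and 65, 59, 65, 31 and 32 in sTBI. The other 4 higher features had 0 to 19 UMIs in naïve rats and 9 to 61 in sTBI.

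mTBI against sham-operated controls, in which both groups were operated, had 3 of the 21 sums at an unadjusted p under 0.05, all higher in mTBI. These were ProTGG at 0.55 (log2, SE 0.21), ProCGG at 0.54 (SE 0.22) and AlaCGC at 0.54 (SE 0.25), each with an edgeR adjusted p of 0.310. AlaCGC was at 0.28 without mTBI 2. Of all 65 sums 9 had such a p. The median of the 21 sums was 0.30 and that of all sums 0.33 on the log2 scale, so the bulk of sums was also above 0. The signs of all of these 3 were the same under the 5 scalings tried, but the sizes were not. With miRNA UMIs the folds were lowest, at 0.28 (ProTGG), 0.24 (ProCGG) and 0.40 (AlaCGC) log2. With total tRNA UMIs they were highest, at 0.87, 0.90 and 0.79 in the same order. The unadjusted p-values that singled out these sums are those with TMM scaling.

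edgeR called 0.0% of all features and 0.0% of all sums in mTBI against sham-operated controls, and DESeq2 likewise 0.0% of both. Of the 134 features 9 had an unadjusted p under 0.05, all higher, of 28 of all features, with medians of 0.27 and 0.24 log2. Groups did not overlap for ProTGG, 4.76% of the 21 sums against 1.54% of all sums, and for 2 features, 1.49% of the 134 against 2.71% of all. Of these, Chr4.trna1750-CysGCA was at 0 UMIs in 3 sham libraries and at 10 and 11 in the others, against 10 to 33 in mTBI.

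The Pro copies with the lowest p in mTBI against sham were 3 of different anticodons, named after their values were seen, and none passed the threshold. Chr10.trna12850-ProAGG, the other feature without overlap, had scaled levels of 42.4, 15.7, 29.6 and 11.5 in naïve rats, 14.5, 15.3, 18.9, 18.8 and 14.5 in sham-operated controls, 26.4, 26.1, 29.2, 31.8 and 43.1 in mTBI, and 18.6, 23.0, 14.6, 12.7 and 11.3 in sTBI. All mTBI libraries were above all sham and all sTBI libraries, while naïve rats spanned both. It was at 0.93 in mTBI against sham (log2, SE 0.29, edgeR adjusted p = 0.428) and at -0.96 in sTBI against mTBI (SE 0.29, adjusted p = 0.38).

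Chr15.trna877-ProTGG had 56.0, 12.8, 31.4 and 12.4 in naïve rats, 13.6, 18.1, 19.7, 14.8 and 11.9 in sham-operated controls, 16.8, 32.1, 27.6, 34.6 and 41.1 in mTBI, and 14.6, 18.2, 17.3, 12.4 and 11.7 in sTBI. Chr13.trna3982-ProCGG had 24.5, 11.9, 17.0 and 9.19 in naïve rats, 10.2, 14.6, 15.0, 19.2 and 8.26 in sham-operated controls, 21.6, 16.3, 21.3, 31.3 and 28.6 in mTBI, and 16.1, 17.6, 11.9, 14.5 and 12.4 in sTBI. For each, 4 of 5 mTBI libraries lay above all sham and sTBI libraries. Against sham they were at 0.96 (SE 0.33) and 0.82 (SE 0.27) on the log2 scale.

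sTBI against sham-operated controls had the fewest low p-values. Of the 134 features 1 had an unadjusted p under 0.05, namely Chr10.trna12846-ProTGG (0.65 log2), which was also the only such feature of all 332, and the lowest edgeR adjusted p among the 134 was 0.996. CysGCA was the only such sum of all 65, at 0.58 (log2, SE 0.24, adjusted p = 0.987), and it was at 0.38 without sTBI 1. edgeR called 0.0% of all features and 0.0% of all sums, and DESeq2 likewise 0.0% of both. The medians were 0.07 over the 134 and -0.005 over all features. Groups did not overlap for none of the 134 features, against 0.301% of all, and for none of the sums, 0.0% of all.

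sTBI against mTBI asked whether severity separated the injuries. ProCGG, at -0.55 (log2, SE 0.22, edgeR adjusted p = 0.328), was the only sum of the 21 with an unadjusted p under 0.05, of 4 of all 65. Of the 134 features 5 had such a p, all lower in sTBI, of 15 of all. They were the 3 Pro copies above, Chr12.trna2135-AlaTGC (-1.23 log2, SE 0.54) and Chr3.trna1329-AlaCGC (-0.88 log2, SE 0.34). Without naïve 1, naïve 3, mTBI 2 and mTBI 5 these Ala copies were at 0.32 and -0.03, so the direction of Chr12.trna2135-AlaTGC turned. edgeR called 0.0% of all features and 0.0% of all sums, and DESeq2 likewise 0.0% of both. The median was -0.22 over the 134 and -0.17 over all. Groups did not overlap for Chr10.trna12850-ProAGG alone, 0.746% of the 134 against 1.2% of all features, and for none of the 21 sums against 1.54% of all sums.

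Marker levels beside these comparisons were as follows. Neuronal miRNA markers summed to 28.4 to 56.4 CPM of miRNA UMIs in naïve rats, 44.5 to 131 in sham-operated controls, 91.5 to 171 in mTBI and 307 to 426 in sTBI, and muscle markers to 196 to 799, 1320 to 7265, 1451 to 2825 and 839 to 1367. Neuronal markers in sTBI lay above those of every other group, and muscle markers in naïve rats lay below those of every other group, while mTBI and sham-operated controls overlapped in both. Erythrocyte markers overlapped in all groups, at 166300 to 352600, 226100 to 364700, 167000 to 344800 and 202000 to 352700. Leukocyte, liver and platelet markers overlapped as well. The part of any of these cells in the tRNA levels was not tested.

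The 4 libraries that stood apart did so across several members. Naïve 1, naïve 3, mTBI 2 and mTBI 5 had 12.6 to 16.8 miRNA UMIs per spike-in UMI, against 5.53 to 9.37 in the other 15 libraries. They were picked by that measure and not by the tRNA counts, and since they are no group of the study their levels are given without a test. For AlaCGC they had 181 to 214 CPM against 62.4 to 149 in the other 15, for AlaTGC 98.8 to 273 against 31.4 to 74.6, and for MetCAT 414 to 992 against 173 to 388. With TMM scaling all 4 were thus above every other library for these 3 sums. Per tRNA UMI with no composition correction, the highest library was mTBI 1 for AlaCGC and MetCAT, and mTBI 2 for AlaTGC. With TMM scaling 3 of the 4 were above all others for ThrAGT, 2 for PheGAA, and 1 each for ProTGG and ThrCGT, while none was for the other 14 sums. In the other direction naïve 3 and mTBI 2 were below the other 15 libraries for AlaAGC, GlnCTG, IleAAT, ProAGG and TrpCCA. For AlaAGC they had 116 and 136 CPM against at least 163. Below the other 15 were also mTBI 2 for GlnTTG, and naïve 3, mTBI 2 and mTBI 5 for the rare AlaGGC.

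Without these 4 libraries the coefficient of variation was 21.9% for MetCAT, 25.7% for AlaTGC and 21.95% for AlaCGC. These sums were named because all 4 libraries lay highest in them, so a smaller spread without those libraries follows from that choice. All 4 were also highest for particular copies. Of 67 features with a mean of at least 20 UMIs, 5 had all 4 libraries above the other 15 and 46 had none. In the other direction no feature had all 4 below the other 15, 3 had 3 below (Chr1.trna6234-AlaAGC, Chr4.trna7721-CysGCA and Chr8.trna5635-ProAGG) and 11 had 2. The 5 features with all 4 above were Chr3.trna1329-AlaCGC, Chr12.trna2135-AlaTGC (79.3 to 235 against 14.3 to 47.8 CPM), Chr17.trna1583-MetCAT (120.1 to 182 against 24.4 to 69.6), Chr2.trna7573-MetCAT (24.2 to 44.4 against 9.20 to 23.3) and Chr17.trna3845-MetCAT (12.8 to 18.0 against 4.14 to 10.8).

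The make-up of some sums differed too. Chr3.trna1329-AlaCGC supplied 62.6% to 66.2% of AlaCGC UMIs in the 4 libraries and 33.3% to 58.1% in the other 15. Chr12.trna2135-AlaTGC supplied 76.0% to 86.2% of AlaTGC against 39.7% to 68.0%, and Chr15.trna877-ProTGG 53.4% to 60.8% of ProTGG against 25.5% to 49.2%. For Chr17.trna1583-MetCAT the ranges met, at 18.1% to 31.1% against 9.51% to 21.8%. The most abundant Met copy, Chr11.trna1954-MetCAT, had like shares in both, 26.9% to 39.5% against 25.4% to 38.5%. Ranges also overlapped for Chr17.trna3895-MetCAT (19.1% to 34.1% against 14.7% to 35.6%) and Chr2.trna4115-AsnGTT (62.6% to 93.4% against 71.1% to 96.4%).

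**Figure D4:**
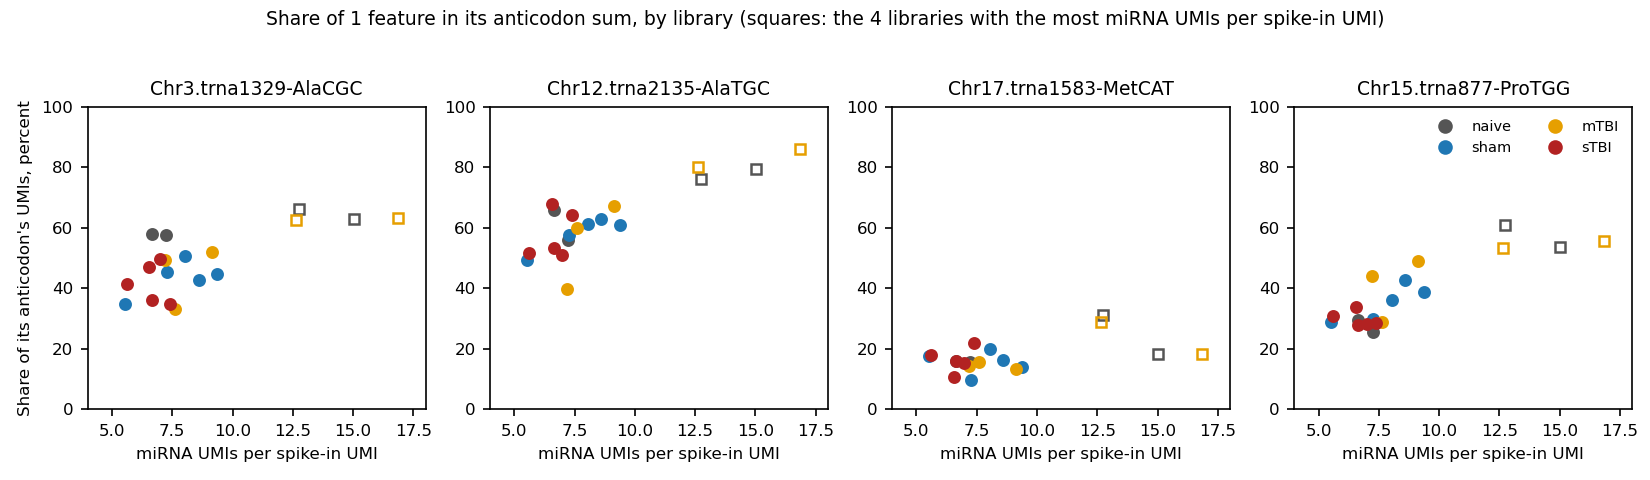
Share of 4 features in the UMIs of their own anticodon sum, in percent, against miRNA UMIs per spike-in UMI, 1 point per library coloured by group. The 4 libraries at 12.6 or more miRNA UMIs per spike-in UMI have the highest shares of Chr3.trna1329-AlaCGC, Chr12.trna2135-AlaTGC and Chr15.trna877-ProTGG.

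The 4 libraries also differed in other measures. Leukocyte miRNA markers summed to 44280 to 60370 CPM in them and to 66700 to 112300 in the other 15, with no overlap. Reads per UMI were 1.195 to 1.239 for the other tRNA features in these libraries against 1.293 to 1.527. For the 172 features themselves reads per UMI overlapped, at 1.165 to 1.498 against 1.456 to 2.218, and erythrocyte markers overlapped, at 166300 to 221600 against 202000 to 364700. The part of these measures in the tRNA levels was not tested.

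Since 2 of the 4 libraries were naïve and 2 mTBI, every contrast with those groups rested partly on them. Without them AlaCGC was at -0.45 (log2, edgeR adjusted p = 0.365) in sham-operated controls and at -0.37 (adjusted p = 0.477) in sTBI against naïve rats, and at 0.05 in mTBI against sham. Chr3.trna1329-AlaCGC was at -0.82 (adjusted p = 0.13) and -0.85 (adjusted p = 0.084) in the first 2 of these contrasts. The Pro sums moved less in mTBI against sham, with ProTGG at 0.52 and ProCGG at 0.62 (adjusted p = 0.109 for both). MetCAT and AlaTGC turned direction: in mTBI against sham MetCAT went from 0.26 to -0.60 (adjusted p = 0.109) and AlaTGC from 0.86 to -0.24, and in sTBI against mTBI MetCAT went from -0.58 to 0.29 and AlaTGC from -0.85 to 0.27 (log2). In sham-operated controls against naïve rats MetCAT went from -0.50 to 0.38 and AlaTGC from -0.63 to 0.11, and in sTBI against naïve rats AlaTGC went from -0.62 to 0.14.

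With only 2 naïve and 3 mTBI rats left, 4 of 143 features of the 11 isotypes passed the threshold in mTBI against naïve rats, all higher in mTBI, which is 2.80% against 11.6% of all 346 features tested in that fit. Chr10.trna12850-ProAGG was at 1.08 (log2, edgeR adjusted p = 0.0231), Chr13.trna3982-ProCGG at 1.21 (adjusted p = 0.0231) and Chr15.trna877-ProTGG at 1.05 (adjusted p = 0.0411). The last was Chr17.trna3868-AlaAGC (edgeR adjusted p = 0.0193), with 0 and 2 UMIs in the naïve libraries that remained and 33, 13 and 10 in mTBI. The 0 was in naïve 2, 1 of the 7 libraries without any count from 1 to 9 in these features. Whether small counts were removed there is not stated. Chr17.trna3868-AlaAGC alone also passed in sTBI against naïve rats (adjusted p = 0.0379), with 20, 13, 24, 14 and 9 UMIs in sTBI, where 5.78% of all features were called. The set was chosen with earlier results of these data known, so these calls are a description of what the naïve 1, naïve 3, mTBI 2 and mTBI 5 libraries contributed.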

How the data were processed

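Per the labels and the study's methods, plasma RNA was isolated with a miRNeasy serum/plasma kit, libraries were made with a QIAseq miRNA kit, adapters were trimmed with cutadapt and reads aligned with Bowtie to Rnor_6.0 (versions not given in the sources used here). The authors deposited read and UMI counts per tRNA feature without normalization, and how reads matching several copies were counted is not given. UMI counts were used. The miRNA and spike-in counts served as other scalings, and the table of other RNA classes was not used for tests. Samples were grouped by their labels. Each library is a separate rat.

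The whole tRNA table was fitted with edgeR 4.0.16 (R 4.3.3, limma 3.58.1; TMM, filterByExpr with a minimum count of 10, robust quasi-likelihood, all 19 libraries in 1 fit). Anticodon sums used the same library sizes and factors. DESeq2 1.42.0, other scalings, filters, read counts, a hemolysis covariate, a replicate block and leaving out each library were alternatives. Setting counts under 10 to 0 was added after seeing the data. Named by rule were all 21 anticodon sums, the copy with the highest mean level in each isotype and any feature past the threshold. Members and lists were chosen with earlier results of these data known. The feature fit was also run on simulated counts, with changes set in sTBI alone and no library made to stand apart. That run cannot show how the fit handles libraries that stand apart. Summaries used Python 3.11.15 with pandas 2.3.3, and figures matplotlib 3.10.9. Intervals and SEs cover the spread between rats within this set of libraries.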

Additional observations from a re-analysis of the deposited data

Results flagged for a closer look

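Among 128 sets of values (a sum or a most abundant copy within 1 group), 15 had a library whose gap to the nearest other library took up most of the group's range. The critical value used flags about 1 in 20 sets of independent, normally distributed values by chance, and these sets share libraries. Each most abundant copy is also part of the sum of its own anticodon, so 1 library can be counted for both. All values are TMM-scaled CPM. Of the sums, 8 of 84 sets held such a library.

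The high libraries among the sums were sham 4 for AlaGGC (9.41, nearest 3.63), mTBI 2 for AlaTGC (273, nearest 98.8), sTBI 2 for IleTAT (7.46, nearest 2.06), naïve 3 for PheGAA (229.9, nearest 96.4), mTBI 2 for PheGAA (293, nearest 96.6), sTBI 1 for ThrAGT (31.3, nearest 19.5) and mTBI 1 for TyrGTA (159, nearest 61.2). The low library was sham 5 for PheAAA (0, nearest 3.05), and sham 5 is 1 of the 7 libraries without any count from 1 to 9 in these features. AlaGGC, IleTAT and PheAAA rest on few UMIs.

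Among the most abundant copies, Chr11.trna1954-MetCAT was high in mTBI 2 (392.0, nearest 111) and low in sTBI 5 (47.8, nearest 87.6). Chr12.trna2133-PheGAA was high in mTBI 2 (118, nearest 27.1), Chr4.trna1068-ProAGG in sham 5 (86.5, nearest 43.3) and Chr7.trna8814-TrpCCA in sTBI 2 (17.3, nearest 10.7). Chr17.trna1604-TyrGTA was high in naïve 4 (34.01, nearest 15.7) and in mTBI 1 (48.9, nearest 26.5). The library mTBI 2 accounts for 4 of the 15 values, and mTBI 1 for both Tyr values of its group.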

How the results depend on the processing

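No feature or sum of the 11 isotypes passed the threshold in edgeR as described, and 31 alternatives were run on the 14 counts of calls, except that fitting only the 2 groups compared gives no test of any difference among the 4 groups. Of the resulting 432 values 7 differed from 0. In mTBI against naïve rats, scaling by total tRNA UMIs called 7 features and 10 sums, and leaving out naïve 1, naïve 3, mTBI 2 and mTBI 5 called 4 features. In sTBI against naïve rats DESeq2 called 1 feature and leaving out the 4 libraries 1. In the test of any difference DESeq2 called 1 and leaving out the 4 libraries 1 (Chr10.trna12850-ProAGG, edgeR adjusted p = 0.0352, against 5.78% of all features). Leaving out each library in turn called 0 to 0, and the replicate block called 0. The replicate numbers did not pair the libraries: over 27 same-numbered pairs the correlation of deviations ran from -0.681 to 0.411. Over the whole tRNA table, most of whose UMIs were Gly and Glu, replicates differed beyond counting noise (lowest chi-square per degree of freedom 62.1). That value is not one for the 11 isotypes alone. Few rats per group, uneven depth and shared reads between copies limit what these counts can show.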
